A study of Mus musculus with 12 samples.

Results

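Metformin, a biguanide that lowers blood glucose, was added to a diet that produces steatohepatitis in mice, and the livers of treated and untreated mice were compared across all genes that the arrays measured well. The comparison rests on 8 of the 12 arrays analysed here, 4 from mice fed the MCD+HF diet and 4 from mice fed that diet with metformin (MCD+HF+Met), and the other 4 arrays, from mice on normal chow (NC), were used to estimate the spread and to show each gene's level without the diet. All mice were C57BL/6, 8 weeks old at the start and fed for 8 weeks. The MCD+HF diet lacked methionine and choline and was rich in fat, metformin was mixed into it at 0.1%, and the labels give all livers as fasting, with 1 array per mouse. The sex of the mice is not stated in the labels. Each array gave 1 signal per probe set, a group of short probes for 1 transcript, and the authors had scaled every array to an average signal of 100.

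A diet without methionine and choline limits the export of triglyceride from hepatocytes, so that fat is stored, and the liver then gains leukocytes and scar-forming cells. Macrophages that take up lipid and dead cells express receptors, lysosomal proteases and proton pumps, whereas hepatocytes make most plasma proteins and the enzymes of amino acid, fat and drug metabolism. Metformin is taken up by hepatocytes through organic cation transporters, lowers the activity of mitochondrial complex I and leads to activation of AMPK, a kinase that senses low cellular energy.

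Signals were compared as log2(signal + 10), and differences below are on that scale, which understates the change of dim genes. Of 22832 probe sets whose mean signal reached 20, 786 (3.44%) differed between MCD+HF+Met and MCD+HF at an adjusted p under 0.05 in limma, 282 of them higher and 504 lower with metformin. With each of 11172 genes taken at its brightest probe set, 451 (4.04%) passed, 186 (1.66%) higher and 265 (2.37%) lower. A change of at least 2-fold was seen in 13 of the higher and 81 of the lower genes. The median difference over all genes was 0.01. Between the 4 and 4 mice, 1424 genes (12.7%) had no overlap, and 418 of the 451 genes that passed were among them. When each of the 12 arrays was left out in turn, 134 genes passed every time, 52 higher and 82 lower. Some of the genes described here are from these 134, and others lost their call without some array or were not called. Of probe sets, 254 were called without MCD+HF mouse 2 (86 higher) and 297 without MCD+HF+Met mouse 2 (96 higher), and the higher ones fell to 162 without MCD+HF mouse 3. The methods' t-test, adjusted in the same way, called only 8 probe sets, those of Mbl2, Itih1 and Tuba4a as higher and those of Hnrnpa1, Nagk, Zfp661, Snx14 and 1 probe set without a gene name as lower, so that every other call below was limma's alone.

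**Figure D1:**
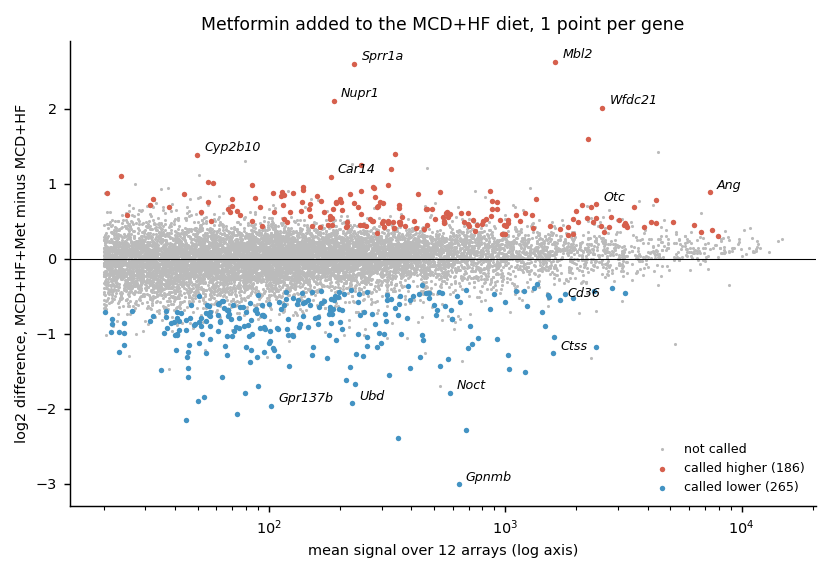
Log2 difference of MCD+HF+Met from MCD+HF (vertical axis) against the mean signal over 12 arrays (horizontal log axis) for 11172 genes, with 186 genes called higher in red and 265 called lower in blue. Genes called lower reach a log2 difference of -3.01 and those called higher reach 2.63, and most genes lie near 0.

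Several genes of phagocytes and of inflamed epithelium were among the 15 largest falls without overlap of the groups. Ubd, a ubiquitin-like modifier induced by inflammatory cytokines, had signals of 595, 468, 604 and 419 in MCD+HF mice 1 to 4 and of 116, 103, 197 and 115 in the MCD+HF+Met mice. The log2 difference was -1.93 (SE 0.182, adjusted p = 9.18e-05), a 3.80-fold lower level. Every treated mouse lay below every untreated mouse, and the NC mice, at 16.7, 17.4, 25.1 and 22.2, lay below both. Gpr137b, a lysosomal membrane protein linked to mTORC1 signalling, gave 273, 315, 130.4 and 175 without and 54.7, 34.6, 73.9 and 33.3 with metformin. Its difference was -1.96 (SE 0.255, adjusted p = 0.00112), and treated mice 2 and 4 lay within the range of the NC mice, 25.5 to 42.0. A dimmer probe set of the gene fell by 1.37. Clec4d, a C-type lectin receptor of myeloid cells, gave 192, 181, 66.7 and 83.2 without and 27.6, 23.2, 33.3 and 20.6 with metformin, a difference of -1.85 (SE 0.270, adjusted p = 0.00206). The groups did not overlap, but untreated mice 1 and 2 were well above untreated mice 3 and 4, and the same pair was the higher one for Gpr137b. Hk3, the hexokinase of blood cells, fell from 195, 178, 101 and 115 to 21.8, 26.6, 67.8 and 31.1 (log2 difference -1.79, SE 0.255, adjusted p = 0.00174). Of the 4 treated mice, 3 had less Hk3 than any NC mouse (58.8, 50.4, 62.3 and 40.6), and mouse 3 had more than the NC mice. Its second probe set gave -0.81 and did not pass.

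Also lower were 7 genes that leukocytes are known to express, which do not come from 1 list. Adam8, a membrane protease of leukocytes, was 300.2, 311, 112 and 124 without and 45.9, 55.2, 58.1 and 49.1 with metformin (log2 difference -1.70, SE 0.301, adjusted p = 0.00698), a call lost when no offset was added before the log (adjusted p = 0.0854). Its NC signals were 1.40 to 13.2. Tyrobp, the signalling adaptor of Trem2 and other myeloid receptors, and Pirb, an inhibitory receptor, were chosen after their values were seen and fell by 1.33 (SE 0.148, adjusted p = 0.000385) and 1.24 (SE 0.151, adjusted p = 0.00103) on the log2 scale. The growth factor receptors Csf1r, for macrophages, and Csf2rb, the shared beta chain of the GM-CSF, IL-3 and IL-5 receptors, fell by 0.70 (SE 0.129, adjusted p = 0.00831) and 1.02 (SE 0.165, adjusted p = 0.00398). Csf1r stood at 2121, 1939, 1648 and 1620.4 without metformin, at 1005, 903, 1296 and 1306 with it and at 1415, 1429, 1314 and 1155 on chow, so that treated mice 1 and 2 were below all NC mice. Anxa1, a phospholipid-binding protein of phagocytes and injured epithelium, fell from 941, 871, 432 and 473 to 204, 215, 245 and 190.4 (log2 difference -1.55, SE 0.205, adjusted p = 0.00117), and Lcp1, the actin-bundling protein of leukocytes, from 954, 772, 651 and 682 to 425, 461, 515 and 468 (log2 difference -0.69, SE 0.121, adjusted p = 0.00698). All 7 of these genes, by their brightest probe sets, passed with any array left out, and in none did the 2 groups overlap. Among all 451 called genes, 134 passed with any array left out and 418 had no overlap, as did 12.7% of all genes. Lack of overlap was also part of the rule that named the largest falls. In whole liver RNA, fewer cells of a type and less RNA per cell cannot be told apart.

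The marker lists of cell types moved unequally. Of 11 tested markers of lipid-associated macrophages, 8 were lower, none was higher, and the median difference was -1.51, beside 2.37% of all genes lower and a median of 0.01. This count was 6 without MCD+HF mouse 2 and between 8 and 9 without any other array. The summed signal of the list ran from 16492 to 23604 in the MCD+HF mice and from 12191 to 13737 in the MCD+HF+Met mice, with no overlap. Of 14 markers of macrophages and Kupffer cells, 11 were below 0 with a median of -0.35. The 3 called lower were Lyz2, Cd68 and Csf1r. Of the others, the 3 that mark resident Kupffer cells most closely did not pass, with log2 differences of -0.12 for Vsig4, 0.00 for Timd4 and 0.46 for Clec4f. The number called lower rose from 3 to 6 without MCD+HF+Met mouse 4, and the summed signal was 8431 to 10430 without and 4366 to 7923 with metformin. The mean log2 level of this list did overlap between the groups. Relative to the MCD+HF mean, treated mice 3 and 4 stood at -0.13 and 0.01, within the MCD+HF range of -0.22 to 0.30. Treated mice 1 and 2 stood below that range, at -0.58 and -0.82. T-cell markers were mostly dim: 10 of 12 were not tested, Cd8a did not pass (log2 difference 0.22) and Il7r, which some macrophages also carry, fell. Of the 3 NK cell markers tested, Klrd1 was lower (log2 difference -0.81, adjusted p = 0.0323), a call lost without MCD+HF mouse 1 or 2 or MCD+HF+Met mouse 1, 2 or 4 (adjusted p = 0.0509 to 0.114). Klrk1 and Prf1 did not pass. No member passed among 5 dendritic cell, 4 neutrophil, 4 B-cell, 12 endothelial, 5 cholangiocyte and 3 platelet markers by its brightest probe set. All 5 dendritic cell markers were below 0, with a median of -0.37. Dimmer probe sets of the class II genes H2-Aa (-0.87 and -1.31, adjusted p = 0.0236 and 0.00674) and H2-Ab1 (-0.89, adjusted p = 0.0260) passed. So did dimmer probe sets of the endothelial markers Lyve1 (-0.87, adjusted p = 0.0128) and Fcgr2b (-0.60, adjusted p = 0.0262). Of 7 hepatocyte markers none passed and all 7 had differences above 0. After quantile normalization 6 of 7 were above 0 and the median was 0.02 in place of 0.16. The summed signal was 48264 to 57594 without and 53436 to 63072 with metformin. Of 12 markers of stellate cells and myofibroblasts, 7 were below 0 with a median of -0.15, and Vim and Dcn were called lower. Other probe sets of Vim gave -1.29 and -0.93 and passed (adjusted p = 0.00112 and 0.00779). The contractile markers Acta2 and Des, at 0.46 and 0.47, were not called. A dim second probe set of Dcn gave 0.25. The number called lower was 0 without MCD+HF mouse 1 or 2 or MCD+HF+Met mouse 1 or 2. It was 1 without MCD+HF mouse 3 or 4, MCD+HF+Met mouse 4 or NC mouse 2 or 4. The only erythroid marker tested, Alas2, was higher (0.72, adjusted p = 0.0394), a call lost without MCD+HF mouse 1, 2, 3 or 4, MCD+HF+Met mouse 2 or NC mouse 1 or 2 (adjusted p = 0.0503 to 0.0913). The part of cell numbers in the lower leukocyte and lysosomal genes was not tested.

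**Figure D2:**
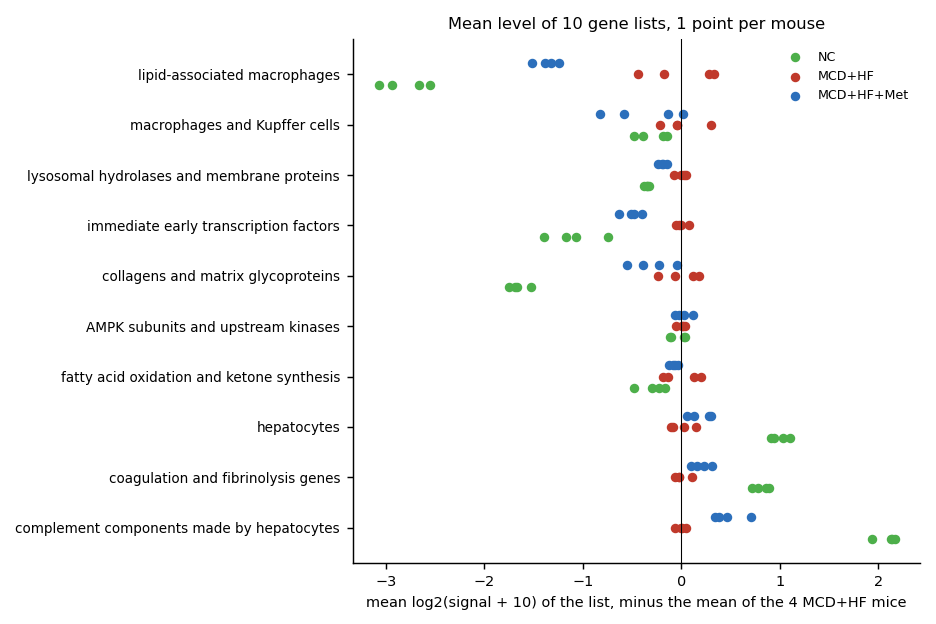
Mean log2(signal + 10) of the members of 10 gene lists in each mouse (horizontal axis), relative to the mean of the 4 MCD+HF mice, with NC in green, MCD+HF in red and MCD+HF+Met in blue. For lipid-associated macrophages the MCD+HF+Met mice lie between -1.52 and -1.24 and the NC mice between -3.07 and -2.55, whereas for AMPK subunits the 3 groups overlap.

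The promoters of 2 of the lower genes are printed because they hold the core letters that PU.1, the master transcription factor of myeloid cells, binds. Mmp12 encodes macrophage elastase and Ctss encodes cathepsin S, a protease of the antigen-presenting lysosome. Each window runs from 250 bases before to 50 bases after the start of the RefSeq gene in GRCm38.p6, Mmp12 at chr9:7344147-7344446 and Ctss at chr3:95526536-95526835, both on the plus strand. The capitals mark the match to GAGGAAGT, read here on the opposite strand.
Mmp12: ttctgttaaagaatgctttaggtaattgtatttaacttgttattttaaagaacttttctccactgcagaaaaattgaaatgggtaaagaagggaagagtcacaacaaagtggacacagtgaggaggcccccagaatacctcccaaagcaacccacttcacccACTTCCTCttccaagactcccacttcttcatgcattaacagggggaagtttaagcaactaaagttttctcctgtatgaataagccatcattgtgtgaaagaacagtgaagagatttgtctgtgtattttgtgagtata
Ctss: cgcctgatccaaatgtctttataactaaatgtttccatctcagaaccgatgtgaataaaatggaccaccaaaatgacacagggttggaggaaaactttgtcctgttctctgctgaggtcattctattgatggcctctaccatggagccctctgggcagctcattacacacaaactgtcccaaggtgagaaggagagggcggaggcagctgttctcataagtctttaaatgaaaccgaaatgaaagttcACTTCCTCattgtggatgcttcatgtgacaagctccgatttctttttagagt
Of 211 lower genes with a promoter in the table, 15 (7.11%) held these letters on either strand, as did 2 of 158 higher genes (1.27%), Lin7a and Tor1aip2, and 323 of the 9058 genes tested with a window (3.57%). The longer form AGAGGAAGT was in 5 lower genes (2.37%) and 113 of all those tested (1.25%). The shorter form GGAAGTG was in 36 lower genes (17.1%), 18 higher genes (11.4%) and 1527 of all those tested (16.9%). The lower genes thus held the shorter form at about the share of all genes. PU.1 was not the only motif with a larger share in the lower genes. The HNF4 letters were in 5 lower genes (2.37%) and 57 of all those tested (0.629%). The NF-kB letters were in 8 lower genes (3.79%) and 176 of all those tested (1.94%). The shares of CRE, E-box, ETS, SRE, PPRE and the shorter HNF1 pattern were smaller in the lower genes than in all those tested. A match is only a string of letters, and binding was not measured. Ctss itself had signals of 3473, 3181, 2014 and 2487 without and 1018, 978, 1304 and 1276 with metformin (log2 difference -1.26, SE 0.186, adjusted p = 0.00216). The groups stood well apart, and treated mice 1 and 2 lay within the NC range of 563 to 1020.4. Mmp12 had signals of 1347, 1218, 456 and 551 without and 111, 130.2, 229 and 133 with metformin (log2 difference -2.39, SE 0.343, adjusted p = 0.00186), against 1.40 to 19.8 on chow.

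Of 37 lysosomal hydrolases and membrane proteins tested, 8 were lower and none was higher, but the median difference was only -0.07. The 8 were Ctsk, Cd68, Ctss, Lgmn, Ctsd, Npc2, Psap and Lipa. Ctsk, the cathepsin K of osteoclasts and lipid-laden macrophages, fell most, from 141, 163, 85.6 and 124 to 48.6, 32.5, 32 and 29.7 (log2 difference -1.58, SE 0.219, adjusted p = 0.00146). Treated mice 2, 3 and 4 lay within the NC range of 12.6 to 32.6. Lgmn, the asparagine endopeptidase legumain, fell from 855, 884, 633 and 687 to 454, 341, 547 and 469 (log2 difference -0.75, SE 0.142, adjusted p = 0.00984). Among the members that did not pass were Lamp1 (log2 difference 0.09), Ctsb (-0.13) and Ctsl (0.10). Of the 8 calls, 4 were made without MCD+HF mouse 2, 5 without MCD+HF+Met mouse 2 and 6 to 8 without any other array.

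Of 15 subunits of the vacuolar proton pump, which acidifies lysosomes, 3 were lower and none was higher, with a median of -0.00. The catalytic subunit Atp6v1a stood at 923, 935, 802 and 818 without and 639, 587, 484 and 616 with metformin (log2 difference -0.58, SE 0.105, adjusted p = 0.00789), and a dimmer probe set of the gene gave -0.28 and did not pass. Atp6v1b2, the companion subunit of the catalytic ring, fell from 551, 619, 628 and 578 to 443, 433, 391 and 401 (log2 difference -0.50, SE 0.0878, adjusted p = 0.00667), with all treated mice below all untreated mice and above the NC mice at 215, 204, 221 and 223. Its second probe set gave -0.25 and did not pass. Atp6v0d2, the membrane subunit of osteoclasts and activated macrophages, fell by 1.61 (SE 0.337, adjusted p = 0.0175), with the call lost without MCD+HF mouse 2 (adjusted p = 0.0643), and its second probe set fell by 1.56.

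**Figure D3:**
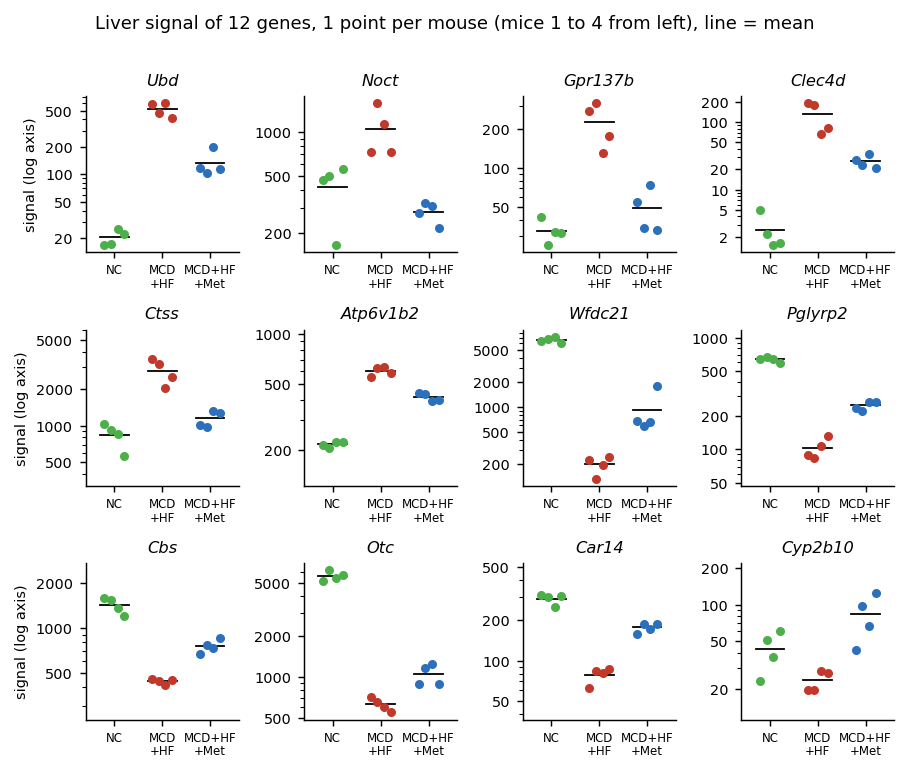
Signal (log axis) of 12 genes in the livers of NC (green), MCD+HF (red) and MCD+HF+Met (blue) mice, 1 point per mouse in the order of mice 1 to 4 and a line at the group mean. In every panel the 4 MCD+HF+Met mice lie wholly above or wholly below the 4 MCD+HF mice, for example 102.5 to 197 against 419 to 604 for Ubd.

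Several genes of proteins that hepatocytes secrete rose with metformin. Wfdc21, a small secreted protein with a whey acidic protein domain, stood at 227, 133, 196 and 248 in MCD+HF mice and at 671, 577, 660.3 and 1777 in MCD+HF+Met mice, a 4.04-fold rise (log2 difference 2.01, SE 0.269, adjusted p = 0.00123). Treated mouse 4 was far above the other treated mice, and all treated mice remained far below the NC mice, at 6391, 6765, 7198 and 6088. Pglyrp2, the secreted amidase that cleaves bacterial peptidoglycan, rose 2.30-fold, from 89.4, 83.4, 107 and 130.2 to 234, 219, 267 and 265 (log2 difference 1.20, SE 0.125, adjusted p = 0.000279), with narrow groups that did not overlap. Ang, the secreted ribonuclease angiogenin, rose from 3837, 4712, 3932 and 4098 to 6870.3, 7031, 8248 and 8639.8 (log2 difference 0.89, SE 0.110, adjusted p = 0.00104), and its 2 dimmer probe sets rose as well, by 1.09 and 1.26. Treated mouse 4 reached the NC range of Ang, 8474 to 11944, and the others lay below it, whereas the NC mice had 588 to 664 for Pglyrp2, above all treated mice.

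Other plasma proteins rose by less. Chosen after their values were seen from the genes that passed with any array left out, Serpina11, a serpin of hepatocytes, rose by 0.87 (SE 0.164, adjusted p = 0.00996), Itih1, a heavy chain of the inter-alpha-trypsin inhibitors that bind hyaluronan, by 0.59 (SE 0.0764, adjusted p = 0.00112), and Serpinf1, which encodes pigment epithelium-derived factor, by 0.52 (SE 0.0916, adjusted p = 0.00680). A dimmer probe set of Serpinf1 gave 0.21 and did not pass. Itih1 had the tightest groups of these, 430.2, 437, 422 and 419 without and 639, 647, 701 and 606 with metformin, yet the treated mice had well under the 2267, 2291, 2296 and 2232 of the NC mice. Tfr2, the transferrin receptor that senses iron, rose by 0.71 (SE 0.152, adjusted p = 0.0187), a call lost without MCD+HF mouse 2 (adjusted p = 0.0702), and its second probe set gave 0.49 and did not pass.

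Of 25 genes of coagulation and fibrinolysis, 4 were higher and none was lower, with 23 above 0 and a median difference of 0.27. These were Serpinf2, the inhibitor of plasmin, at 0.55 (SE 0.122, adjusted p = 0.0232), F9, the clotting factor IX, at 0.40 (SE 0.0867, adjusted p = 0.0205), Plg, plasminogen, at 0.35 (SE 0.0885, adjusted p = 0.0395), and Serpind1, heparin cofactor II, at 0.33 (SE 0.0856, adjusted p = 0.0482). None of the 4 calls was made without MCD+HF mouse 2, 1 was made without MCD+HF mouse 3, MCD+HF+Met mouse 1 or MCD+HF+Met mouse 2, and 2 were made without MCD+HF mouse 1, MCD+HF+Met mouse 4, NC mouse 1 or NC mouse 2. The call of Serpinf2 was lost without MCD+HF mouse 2 or 3 or MCD+HF+Met mouse 1 or 2 (adjusted p = 0.0536 to 0.0767), that of F9 without MCD+HF mouse 2 (adjusted p = 0.0690), that of Plg without MCD+HF mouse 1, 2 or 3, MCD+HF+Met mouse 1, 2 or 4 or NC mouse 1 or 2 (adjusted p = 0.0505 to 0.125) and that of Serpind1 without MCD+HF mouse 1, 2 or 3, MCD+HF+Met mouse 1, 2, 3 or 4 or NC mouse 1, 2, 3 or 4 (adjusted p = 0.0501 to 0.153). F9 had 1183, 1195, 1246 and 1261 without and 1519, 1509, 1559.7 and 1895 with metformin, which did not overlap, against 2169 to 2421 on chow. Of 20 complement components made by hepatocytes, 5 were higher, none was lower and the median was 0.27. Beside Mbl2 and C9 these were Hc, which encodes complement C5, at 0.55 (SE 0.121, adjusted p = 0.0214), Masp1, a protease of the lectin pathway, at 0.62 (SE 0.114, adjusted p = 0.00891), and Serping1, the C1 inhibitor, at 0.49 (SE 0.121, adjusted p = 0.0379). The 3 other probe sets of Masp1, which gene encodes several splice forms, lay between -0.11 and -0.08 and did not pass. The count was 3 without MCD+HF mouse 2 or MCD+HF+Met mouse 2, and 4 to 7 without any other array, with the call of Hc lost without MCD+HF mouse 2 or MCD+HF+Met mouse 2 or 3 (adjusted p = 0.0527 to 0.0760) and that of Serping1 without MCD+HF mouse 1, 2 or 3, MCD+HF+Met mouse 1, 2 or 4 or NC mouse 1 or 2 (adjusted p = 0.0515 to 0.107).

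**Figure D4:**
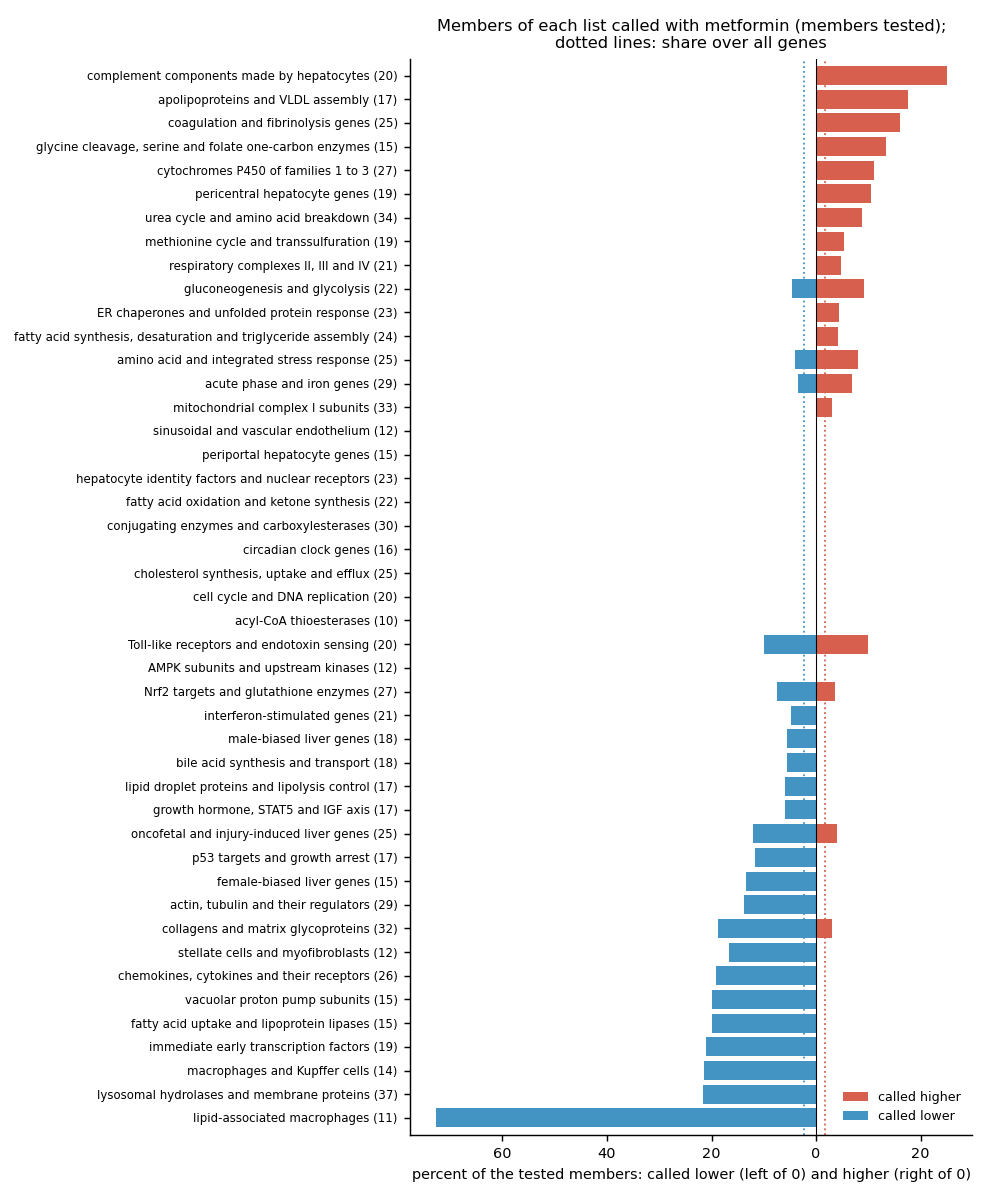
Share of the tested members of each gene list of 10 or more tested members that were called lower (blue, left of 0) or higher (red, right of 0) with metformin, in percent, with the number tested in brackets and the shares over all genes, 2.37% lower and 1.66% higher, as dotted lines. Lipid-associated macrophage markers have the longest bar to the left (8 of 11 lower) and complement components the longest to the right (5 of 20 higher).

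In amino acid metabolism the increases were few and went to single enzymes. Cbs, cystathionine beta-synthase, which commits homocysteine to the transsulfuration pathway, stood at 454, 444, 415 and 447 in the MCD+HF mice and at 665, 774, 736 and 859.9 in the MCD+HF+Met mice (log2 difference 0.77, SE 0.103, adjusted p = 0.00126). The untreated mice were almost equal, and every treated mouse was above them and below the NC mice at 1593, 1533, 1371 and 1209. It was the only 1 of 19 genes of the methionine cycle and transsulfuration to pass, and their median was -0.05. Otc, ornithine transcarbamylase of the urea cycle, rose from 713, 648, 600.2 and 546 to 893, 1175, 1257 and 881 (log2 difference 0.73, SE 0.122, adjusted p = 0.00492) and stayed far below chow at 5155, 6185, 5381 and 5691. Of 34 genes of the urea cycle and of amino acid breakdown, Otc, Haao and Amdhd1 were higher and none was lower, with a median of 0.13. Amdhd1, of histidine breakdown, gave 0.49 (SE 0.123, adjusted p = 0.0393) with overlapping groups, and its call was lost without MCD+HF mouse 1, 2 or 3, MCD+HF+Met mouse 1, 2 or 3 or NC mouse 1 (adjusted p = 0.0519 to 0.126). A dimmer probe set of Amdhd1 gave 0.10 and did not pass. The count of the list was 6 without MCD+HF mouse 4 and 2 or 3 without any other array. Of 15 enzymes of glycine, serine and folate metabolism, 14 were above 0 with a median of 0.26, but only Gldc and Mthfd1l passed, and Mthfd1l (0.63, SE 0.154, adjusted p = 0.0371), a mitochondrial formate-producing enzyme, was lost without MCD+HF mouse 1, 2, 3 or 4 or MCD+HF+Met mouse 2, 3 or 4 (adjusted p = 0.0507 to 0.102). Hao1, the peroxisomal oxidase that turns glycolate into glyoxylate, chosen after its values were seen, rose by 0.51 (SE 0.0910, adjusted p = 0.00743).

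Lipid genes moved in both directions. Noct, which encodes nocturnin, a phosphatase of NADPH that cycles through the day and promotes fat storage, stood at 729, 1580.3, 1129 and 733 in the MCD+HF mice and at 275, 322, 311 and 218 in the MCD+HF+Met mice, a 3.46-fold lower level (log2 difference -1.79, SE 0.312, adjusted p = 0.00642). The treated mice were below all untreated mice and below 3 of the 4 NC mice, at 466, 495, 166 and 554. Among 16 clock genes, which do not include Noct, none passed. Cd36, the fatty acid translocase, stood at 2961, 2845, 2907 and 2691 without and 2048, 1796, 1709 and 2238 with metformin (log2 difference -0.55, SE 0.105, adjusted p = 0.00986). Another probe set fell by 0.64 and the dimmest gave -0.06. The treated mice remained many times above chow, at 317, 311, 299 and 394. Fabp4, the fatty acid binding protein of adipocytes and macrophages, gave -1.31 (SE 0.284, adjusted p = 0.0206), a call lost without MCD+HF mouse 2 or MCD+HF+Met mouse 1 or 2 (adjusted p = 0.0549 to 0.0731), and its 2 other probe sets, at -0.91 and -0.80, did not pass. Together with Lpl these were the 3 lower of 15 genes of fatty acid uptake and lipoprotein lipases, and Fabp1, the abundant liver form, gave 0.23 and did not pass.

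Of 17 apolipoproteins and genes of VLDL assembly, 3 were higher and none was lower, with a median of 0.11. Quantile normalization took that median to 0.02. Apart from Tm6sf2, described with the genes not altered by the diet, these were Apom, the carrier of sphingosine 1-phosphate on HDL, at 0.50 (SE 0.102, adjusted p = 0.0155), and Apoa5, which promotes triglyceride clearance, at 0.39 (SE 0.0800, adjusted p = 0.0160). Apoa5 had 6534, 5793, 5968 and 6294 without and 7538, 7881, 8433 and 8327 with metformin, a range that overlapped chow (7179 to 8802). The call of Apom was lost without MCD+HF mouse 2 (adjusted p = 0.0639) and that of Apoa5 without MCD+HF mouse 2 (adjusted p = 0.0635), which left 1 of the 3. Apoa5 was also lost without the filter on dim probe sets (adjusted p = 0.0631), and a second probe set of Apom gave 0.35 and did not pass. Pla2g12b, a catalytically inactive phospholipase A2 relative needed for VLDL export and chosen after its values were seen, rose by 0.61 (SE 0.115, adjusted p = 0.0103), from 484, 502, 388 and 495 to 719, 796, 575 and 779, and 3 of the 4 treated mice reached the chow range of 688 to 794. Of 24 genes of fatty acid synthesis, desaturation and triglyceride assembly, Pparg, the nuclear receptor of fat storage, alone passed, at 0.70 (SE 0.175, adjusted p = 0.0390), a call lost without MCD+HF mouse 1, 2 or 4 or MCD+HF+Met mouse 1, 2 or 3 (adjusted p = 0.0596 to 0.125). Fasn, the fatty acid synthase, and Acly, ATP citrate lyase, each gave -0.02.

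Among the genes closest to the known actions of metformin few passed. Of 12 AMPK subunits and upstream kinases none was called, and the differences ran from -0.16 to 0.28. Prkaa2, 1 of the 2 catalytic subunits, stood at 497, 521, 689.6 and 669 without and 749.8, 768, 384 and 535 with metformin (log2 difference -0.00, SE 0.185, adjusted p = 0.996). Its other probe sets gave 0.39 (adjusted p = 0.104) and 0.04 (adjusted p = 0.927). Prkaa1, the other, gave -0.16 (SE 0.154, adjusted p = 0.626). The groups overlapped for both, and these are transcript levels, which do not report the activity of the kinase. Of the transporters of metformin and organic cations 3 were tested and none passed, with Slc47a1, the exporter MATE1, at 0.17 (SE 0.138, adjusted p = 0.549). Of 33 subunits of mitochondrial complex I, 28 were above 0 (24 after quantile normalization) with a median of 0.16, and 1 passed, Ndufs8 (0.54, SE 0.137, adjusted p = 0.0396), a call lost without MCD+HF mouse 1, 2 or 4, MCD+HF+Met mouse 1, 2, 3 or 4 or NC mouse 2 (adjusted p = 0.0512 to 0.107). Of its 5 other probe sets 1 passed, at 0.54, and the others gave 0.16 to 0.27. Complexes II, III and IV gave a median of 0.16 over 21 genes (0.09 after quantile normalization), with Cyc1, cytochrome c1, at 0.44 (SE 0.0947, adjusted p = 0.0193), a call lost without MCD+HF mouse 2 or MCD+HF+Met mouse 2 (adjusted p = 0.0598 to 0.0664). None of 22 genes of fatty acid oxidation and ketone synthesis passed, and Cpt1a, the rate-limiting transporter, gave -0.21. The list of gluconeogenesis and glycolysis had 22 genes tested, 2 higher (9.09%) and 1 lower (4.55%), beside 1.66% and 2.37% of all genes. In this list 16 genes were above 0, the median was 0.14, and 0 to 3 were higher with an array left out. Of its gluconeogenic enzymes, Pck1 gave 0.06, Fbp1 0.25 and G6pc -0.56 (SE 0.263, adjusted p = 0.264), none of which passed. In G6pc the values were wide, 2367, 3580.3, 4517 and 4876 without and 1669, 2305, 2529.7 and 4068 with metformin. Ppp1r3g, a glycogen-targeting subunit of protein phosphatase 1 that responds to feeding, was among the 15 largest falls, from 595, 1103, 2311 and 2630.1 to 89.2, 332, 444 and 471 (log2 difference -2.28, SE 0.557, adjusted p = 0.0360). Its mice varied widely in both groups, and the call was lost without MCD+HF mouse 2, 3 or 4 or MCD+HF+Met mouse 1 or 2 (adjusted p = 0.0723 to 0.0973).

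Genes of the integrated stress response went in both directions. Nupr1, a chromatin-binding stress protein that the integrated stress response turns on, stood at 202, 94.0, 56.7 and 70.1 in the MCD+HF mice and at 477, 522, 377 and 391 in the MCD+HF+Met mice, a 4.30-fold rise (log2 difference 2.10, SE 0.279, adjusted p = 0.00117), with no overlap between the groups. The NC mice had 8.50, 18.5, 23.1 and 15.9, below every mouse on the diet, and a second probe set rose by 1.89. Its promoter, at chr7:126625421-126625720 of GRCm38.p6 on the minus strand, is shown because it holds the letters TGATGNAAT, the element through which ATF4 and its partners act on such genes. The match, in capitals, reads in the opposite direction.
Nupr1: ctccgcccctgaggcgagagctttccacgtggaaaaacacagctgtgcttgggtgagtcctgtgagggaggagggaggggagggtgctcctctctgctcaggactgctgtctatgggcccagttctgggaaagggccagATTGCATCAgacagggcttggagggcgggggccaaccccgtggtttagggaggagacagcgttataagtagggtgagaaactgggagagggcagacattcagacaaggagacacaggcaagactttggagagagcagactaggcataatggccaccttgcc
These letters stood in 50 (0.552%) of the 9058 promoters of tested genes, in 5 (3.16%) of 158 higher genes, which were Iars, Nupr1, Serpinf1, Slc17a1 and Uxt, and in 2 (0.948%) of 211 lower genes, Arid5b and Gm13306. The shorter of the 2 HNF1 patterns searched also had a larger share in the higher genes than in all tested genes. It stood in 4 (2.53%) of 158 higher genes, 0 of 211 lower genes and 39 (0.431%) of the 9058 promoters. Eif4ebp1, a repressor of translation that is also a target of ATF4, rose from 1025, 976, 1211 and 1163 to 1511, 1649.7, 1582 and 1944 (log2 difference 0.61, SE 0.105, adjusted p = 0.00612). Its second probe set rose by 0.53, and its dimmest gave 0.14 and did not pass. The other well-known members of the response were not called, with Asns, asparagine synthetase, at 0.27, Trib3, a pseudokinase, at 0.66, Chac1, which degrades glutathione, at 0.18, and Ddit3, the factor CHOP, at 0.24. Of 25 members tested, 2 (8%) were higher and Atf3 (4%) was lower, with a median of 0.00. Over all genes 1.66% were higher and 2.37% lower. Atf3, a transcription factor of acute stress, fell from 188, 191, 169.8 and 161 to 103, 94.7, 85.0 and 71.3 (log2 difference -0.94, SE 0.184, adjusted p = 0.0124), a call lost without MCD+HF mouse 2 (adjusted p = 0.0512) and also when no offset was added (adjusted p = 0.0545).

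Immediate early genes, which are switched on within minutes of a stimulus and whose RNA is short-lived, mostly had differences below 0. Of 19 tested, 16 were below 0 and the median was -0.63, against 0.01 over all genes, but only 4 passed, Dusp1, Atf3, Ier3 and Zfp36. The mean of the list in the treated mice was -0.63 to -0.40 relative to the MCD+HF mice, whose own range was -0.05 to 0.08, so that the groups did not overlap. Dusp1, a phosphatase of MAP kinases, had 572, 1061, 1184 and 1238 without and 343, 399.8, 484 and 669 with metformin (log2 difference -1.06, SE 0.257, adjusted p = 0.0344), and untreated mouse 1 overlapped the treated mice. Zfp36, which destabilises cytokine RNAs, had 417, 518, 448 and 532 without and 332, 298, 289 and 299 with metformin (log2 difference -0.63, SE 0.140, adjusted p = 0.0225), and the treated mice lay below the untreated ones, which lay below the NC mice at 681, 1174, 912 and 781. Ier3, a survival gene of stressed cells, gave -0.86 (SE 0.179, adjusted p = 0.0169), with no overlap. The number of calls was 0 without MCD+HF mouse 2, 1 without MCD+HF+Met mouse 2, 2 without MCD+HF mouse 4 and 6 without MCD+HF mouse 1. The call of Dusp1 was lost without MCD+HF mouse 2, 3 or 4 or MCD+HF+Met mouse 1, 2 or 3 (adjusted p = 0.0569 to 0.0988), that of Zfp36 without MCD+HF mouse 2 or 4 or MCD+HF+Met mouse 2 (adjusted p = 0.0598 to 0.0788) and that of Ier3 without MCD+HF mouse 2 or MCD+HF+Met mouse 2 (adjusted p = 0.0547 to 0.0670). Egr1, the best known gene of the class, gave 0.16 and Jun -0.76, and neither passed.

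Of 20 genes of Toll-like receptors and endotoxin sensing, 2 were lower and 2 higher, with a median of -0.08. Tlr13, which senses bacterial ribosomal RNA, stood at 192, 219, 138 and 124 without and 69.4, 71.5, 97.7 and 94.4 with metformin (log2 difference -0.91, SE 0.209, adjusted p = 0.0262), with no overlap. The inflammasome adaptor Pycard fell by 0.80 (SE 0.180, adjusted p = 0.0230). The 2 higher genes were Lbp, the plasma protein that binds endotoxin, at 0.91 (SE 0.236, adjusted p = 0.0470), and Tirap, an adaptor of Toll-like receptors, at 0.57 (SE 0.129, adjusted p = 0.0260). Dimmer probe sets gave 0.73 for Lbp and 0.27 for Tirap and did not pass. None of the 4 calls held with each array left out in turn: that of Tlr13 was lost without MCD+HF mouse 1 or 2 or MCD+HF+Met mouse 1 or 2 (adjusted p = 0.0682 to 0.0952), that of Pycard without MCD+HF mouse 1 or 2 or MCD+HF+Met mouse 2 or 4 (adjusted p = 0.0512 to 0.0860), that of Lbp without MCD+HF mouse 1 or 2, MCD+HF+Met mouse 1, 2, 3 or 4 or NC mouse 1, 2 or 3 (adjusted p = 0.0559 to 0.144) and that of Tirap without MCD+HF mouse 2, 3 or 4 or MCD+HF+Met mouse 1 or 2 (adjusted p = 0.0650 to 0.0839), so that the list had no call at all without mouse 2 of either group. Of 26 chemokines, cytokines and their receptors, 22 were below 0 with a median of -0.30, none was higher and 5 were lower. These were Csf1r, Csf2rb, Csf2ra, the alpha chain of the GM-CSF receptor, and the chemokine Cxcl12 and its receptor Cxcr4. Another probe set of Cxcl12 gave -0.17 and did not pass. The call of Csf2ra was lost without MCD+HF mouse 1 or 2 or MCD+HF+Met mouse 2 (adjusted p = 0.0596 to 0.0799), that of Cxcl12 without MCD+HF mouse 1, 2 or 4, MCD+HF+Met mouse 2, 3 or 4 or NC mouse 1, 2, 3 or 4 (adjusted p = 0.0506 to 0.123) and that of Cxcr4 without MCD+HF mouse 1, 2, 3 or 4 or MCD+HF+Met mouse 1, 2, 3 or 4 (adjusted p = 0.0535 to 0.138). The count was 2 without MCD+HF mouse 1 or 2 or MCD+HF+Met mouse 2, and 3 without MCD+HF mouse 4 or MCD+HF+Met mouse 3.

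Lgals3, galectin-3 of macrophages and injured epithelium, fell from 3351, 3559, 2075 and 2324 to 1275, 1242, 1666 and 1788 (log2 difference -0.90, SE 0.162, adjusted p = 0.00780), with no overlap and far above the NC range of 108 to 118. Hmox1, heme oxygenase 1, fell from 317, 345, 559 and 415 to 249.9, 229, 218 and 235 (log2 difference -0.75, SE 0.159, adjusted p = 0.0179), a call lost without MCD+HF+Met mouse 2 (adjusted p = 0.0567). The treated mice were closely alike, whereas the untreated mice were not. In the same list of 27 Nrf2 targets and glutathione enzymes, Abcc4, an efflux pump, was the other lower gene, at -0.83 (SE 0.200, adjusted p = 0.0327), a call lost without MCD+HF mouse 2, 3 or 4 or MCD+HF+Met mouse 2, 3 or 4 (adjusted p = 0.0584 to 0.0937). Gstm3, a glutathione transferase, was the only higher one, at 0.79 (SE 0.180, adjusted p = 0.0249), a call lost without MCD+HF mouse 1, 2 or 4 or MCD+HF+Met mouse 2 or 3 (adjusted p = 0.0587 to 0.0888). Another probe set of Gstm3 gave 0.49 and did not pass. None of the 20 cell cycle genes passed, although 16 of them were above 0 with a median of 0.30.

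Among enzymes and carriers of foreign compounds, Cyp2b10, the P450 that phenobarbital and the nuclear receptor CAR induce, rose 2.62-fold, from 19.7, 19.5, 27.9 and 27.2 to 42.3, 97.2, 66.3 and 126 (log2 difference 1.39, SE 0.271, adjusted p = 0.0117). The gene was dim, with 23.4, 50.9, 36.6 and 60.5 on chow, and 2 dimmer probe sets gave 1.20 and 1.23 without passing (adjusted p = 0.0508 and 0.131). Slco2a1, the prostaglandin transporter, rose from 159, 148, 187 and 224 to 382, 342, 352 and 374 (log2 difference 0.99, SE 0.129, adjusted p = 0.00112), within the NC range of 339 to 458. Of its 3 dimmer probe sets 1 passed, at 0.83, and the others gave 0.67 and 0.68. Car14, a membrane-bound carbonic anhydrase, rose from 62.9, 83.1, 80.7 and 86.5 to 159.5, 189, 174 and 188 (log2 difference 1.09, SE 0.117, adjusted p = 0.000292), with no overlap. Of 27 cytochromes P450 of families 1 to 3, 3 (Cyp2b10, Cyp2c38 and Cyp2c50) were higher and none was lower, with a median of 0.27 and counts between 2 and 7 with an array left out, the 7 without MCD+HF+Met mouse 4. The call of Cyp2c50 was lost without MCD+HF mouse 1, 2 or 4, MCD+HF+Met mouse 1, 2 or 3 or NC mouse 1, 2, 3 or 4 (adjusted p = 0.0532 to 0.142), and also after quantile normalization (adjusted p = 0.0534). Of 30 conjugating enzymes and carboxylesterases none passed, and the median was -0.13.

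Of the genes not altered by the diet, a smaller share was called with metformin than of all genes. Not altered means not called between MCD+HF and NC, with a difference there of less than 0.5 on the log2 scale. Of 5597 such genes, a set of 77 (1.38%) was called with metformin, beside 4.04% of all genes. Both comparisons use the same MCD+HF mice, so that leaving out genes called with the diet can by itself lower this share. Of the 77, 45 were higher and 32 lower, and 18 passed with any array left out, 12 higher and 6 lower. The 77 became 20 without MCD+HF+Met mouse 2, 26 without MCD+HF mouse 2, 41, 40 and 49 without MCD+HF mice 1, 3 and 4, 42, 52 and 48 without MCD+HF+Met mice 1, 3 and 4, and 59 to 71 without an NC mouse. Tm6sf2, which helps to load lipid onto VLDL in the endoplasmic reticulum, stood at 80.4, 103, 129.9 and 116 in the MCD+HF mice, at 209, 215, 234 and 201 in the MCD+HF+Met mice and at 81.1, 101, 88.2 and 111 in the NC mice. The difference with metformin was 0.95 (SE 0.138, adjusted p = 0.00197) and that with the diet 0.15 (adjusted p = 0.415). All 4 treated mice were above all 8 others. Tmem41a, a relative of a lipid scramblase of the endoplasmic reticulum, stood at 189, 195, 154 and 219 on MCD+HF, at 289, 367, 369 and 429.5 on MCD+HF+Met and at 169.9, 155, 265 and 157 on chow (log2 difference with metformin 0.90, SE 0.166, adjusted p = 0.00844), and again all treated mice were above the rest. Bcl7c, a subunit of the BAF chromatin remodeller, rose from 147, 177, 143 and 142 to 302, 289, 243 and 224 (log2 difference 0.75, SE 0.129, adjusted p = 0.00558), with NC at 161, 152, 188 and 132, and a second, dim probe set gave 0.07.

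Further genes of this kind that passed with any array left out were picked after their values were seen. Slc25a1, the mitochondrial carrier that exports citrate for fatty acid synthesis, rose from 638, 617, 761 and 769.7 to 1071, 1054, 972 and 916 (log2 difference 0.52, SE 0.0974, adjusted p = 0.00900), above the NC range of 738 to 846. Spp2, a secreted phosphoprotein made in liver, rose by 0.67 (SE 0.122, adjusted p = 0.00801). Bag1, a co-chaperone of Hsp70, rose by 0.55 (SE 0.0985, adjusted p = 0.00725) and Cox19, which carries copper into assembly of cytochrome c oxidase, by 0.56 (SE 0.108, adjusted p = 0.0107). Atox1, a copper chaperone of the cytosol, rose from 1548, 1709, 1736 and 1815 to 2247, 2309, 2109.6 and 2453 (log2 difference 0.42, SE 0.0816, adjusted p = 0.0115). Its 2 other probe sets gave 0.30 and 0.16. For Spp2, Bag1, Cox19 and Atox1 the treated mice did not overlap the untreated mice.

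The lower genes that were not altered by the diet included regulators of RNA and of interferon responses. Mndal, an interferon-inducible nuclear DNA sensor, stood at 449, 354, 312 and 308 without and 184, 169.9, 221 and 185 with metformin and at 327, 303, 304 and 271 on chow (log2 difference -0.86, SE 0.125, adjusted p = 0.00197), and its second probe set fell by 0.85. Of 21 interferon-stimulated genes, a list without Mndal, Irf8 alone was lower (-0.62, adjusted p = 0.0396), a call lost without MCD+HF mouse 1 or 2, MCD+HF+Met mouse 1, 2, 3 or 4 or NC mouse 1 or 2 (adjusted p = 0.0511 to 0.133), and the median was -0.11. Rbm15, an adaptor of the RNA methylation complex, fell from 92.4, 90.3, 117 and 81.8 to 60.8, 45.5, 57.3 and 37.0 (log2 difference -0.82, SE 0.158, adjusted p = 0.0112), below the NC mice at 131, 107, 92.7 and 93.0. Lncpint, a long noncoding RNA induced by p53, fell from 64.3, 50.4, 91.5 and 59.1 to 30.4, 40.0, 27.2 and 25.8 (log2 difference -0.89, SE 0.166, adjusted p = 0.00930). Its difference with the diet was 0.39 (adjusted p = 0.0689). For all 3 the treated mice were below every mouse of the other groups. Coq10b, which binds coenzyme Q, gave -0.80 (SE 0.168, adjusted p = 0.0176), a call lost without MCD+HF+Met mouse 2 (adjusted p = 0.0555). The set also held Pparg, described above, and Pklr, the pyruvate kinase of liver, at 0.70 (SE 0.168, adjusted p = 0.0340), a call lost without MCD+HF mouse 1, 2 or 3 or MCD+HF+Met mouse 1, 2 or 3 (adjusted p = 0.0533 to 0.111), and 2 other probe sets of Pklr gave 0.33 and 0.42 without passing.

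**Figure D5:**
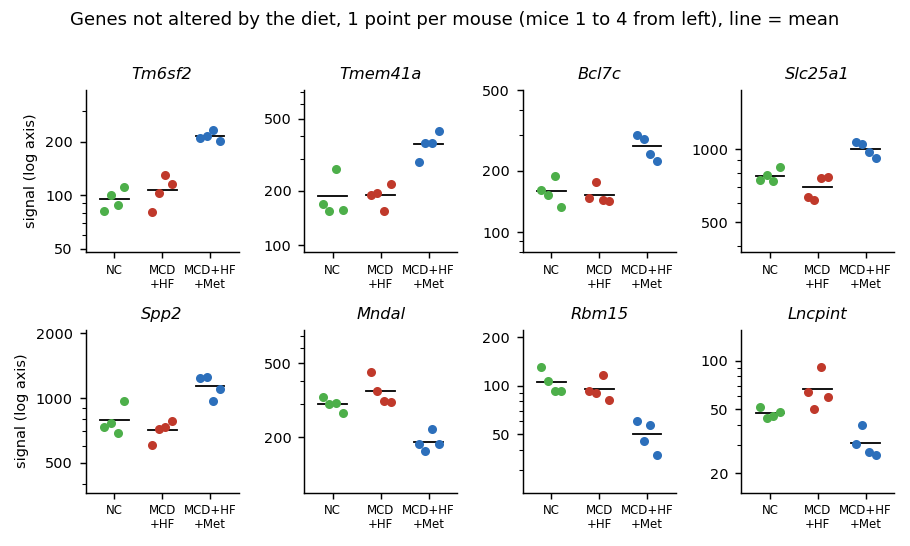
Signal (log axis) of 8 genes that were not altered by the diet, in NC (green), MCD+HF (red) and MCD+HF+Met (blue) mice, 1 point per mouse in the order of mice 1 to 4 and a line at the group mean. The NC and MCD+HF mice overlap or lie close together, whereas the MCD+HF+Met mice stand apart, for example 201 to 234 against 80.4 to 129.9 for Tm6sf2.

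In 23 genes the difference with metformin had the same direction as that with the diet and both were called, so that the treated mice stood further from chow than the untreated mice. Of these, 14 were higher and 9 lower, and 6 passed with any array left out. Nupr1, described above, differed most. Tmprss2, a serine protease of epithelial surfaces, stood at 45.1, 48.5, 36.3 and 30.3 on chow, 101, 112, 104 and 89.7 on MCD+HF and 206, 162, 176 and 254 on MCD+HF+Met (log2 difference with metformin 0.89, SE 0.153, adjusted p = 0.00560). Its 2 other probe sets gave 0.91, which did not pass, and 0.73, which did. Steap2, a metalloreductase of iron and copper, stood at 73.5, 72.3, 70.5 and 60.9 on chow, at 135, 101, 90.6 and 104 on MCD+HF and at 201, 200.4, 189 and 226 on MCD+HF+Met (log2 difference 0.88, SE 0.124, adjusted p = 0.00164), with other probe sets at 0.55, which passed, and 0.35 and 0.27, which did not. For both the 3 groups formed separate steps. Chpt1, the cholinephosphotransferase that makes the last step of phosphatidylcholine synthesis from choline, fell in both comparisons, from 1786, 1735, 1827 and 1794 on chow to 1008, 962, 1317 and 1447 on MCD+HF and 784, 778, 746 and 690.0 on MCD+HF+Met (log2 difference with metformin -0.63, SE 0.116, adjusted p = 0.00822), and of its 3 other probe sets 1 fell, by 1.00, and 2 gave -0.58 and -0.39 without passing. It was picked after its values were seen. Cyp4a12a, the male-biased hydroxylase of arachidonic acid, stood at 2745, 3119, 1923 and 2512 on chow, at 244, 339.5, 597 and 273 on MCD+HF and at 138, 139.6, 125 and 139 on MCD+HF+Met (log2 difference -1.28, SE 0.211, adjusted p = 0.00452). The treated mice were closely alike, whereas the untreated mice were not. The 2 comparisons share the MCD+HF mice, so that chance error in that group moves them in opposite directions.

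Within the MCD+HF group mice 1 and 2 had higher signals than mice 3 and 4 for most of the leukocyte genes above, for example 3473 and 3181 against 2014 and 2487 for Ctss, and lower signals for genes such as Ppp1r3g. The quotient of 3' over 5' control signals, which rises as RNA degrades, was (mean ± SD, n = 4) 1.54 ± 0.0694 for beta-actin in the MCD+HF mice and 1.74 ± 0.114 in the MCD+HF+Met mice, with no overlap, and 0.699 ± 0.0123 and 0.757 ± 0.0451 for Gapdh, with overlap. The part of RNA quality in the differences was not tested.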

How the data were processed

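Total liver RNA of 12 mice, 4 per diet group, was hybridised to Affymetrix Mouse Genome 430 2.0 arrays, and per the labels and the study's methods the authors computed 1 signal per probe set in GCOS and scaled each array to an average of 100. The deposited values are these signal intensities on a linear scale. Their trimmed mean (2% per tail) was 100 on every array, and the depth of an array cannot be given as counts, so that the number of arrays limits precision.

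Of 45101 probe sets, 64 were controls. A single gene symbol was given for 34945, several for 932 and none for 9160, from GEO's platform annotation, and 34741 symbols were matched by gene identifier to the RefSeq table of GRCm38.p6, used only for names and promoters. Probe sets whose mean over 12 arrays reached 20 were kept, 10 was added and log2 taken, and limma 3.58.1 in R 4.3.3 (lmFit, eBayes with a trend, 3 groups, 9 residual degrees of freedom) gave p-values adjusted by Benjamini-Hochberg over 22832 probe sets, with a threshold of 0.05. A gene is its brightest probe set among those naming it alone. Not altered by the diet means not called between MCD+HF and NC and a difference there under 0.5 on the log2 scale.

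Genes were named by rule: the 15 largest rises and falls called without overlap, the 12 largest each way among genes not altered by the diet, up to 6 called members of each list (3 members of a list with none), up to 8 genes further from NC, the AMPK catalytic subunits and the metformin transporters, and from these some were picked. Exceptions are marked in the text, and members named only as examples without a call and genes named only for a motif were also chosen after their values were seen. The members and the 42 gene lists and 13 cell type marker lists were chosen with earlier results of these data known. Lists are described by counts and medians, with no set test.

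Alternatives were other offsets (0 with a floor of 0.1, and 32), a mean of at least 50, no filter, quantile normalization, a model of the 2 groups alone, a robust variance, the replicate number as a block, the methods' t-test with 1.5-fold and with adjustment, other probe sets of a gene and leaving out each array. The fit was tested on simulated data. In RefSeq promoter windows (250 bases before to 50 after the start), 16 motifs were searched on both strands: CRE TGACGTCA, CARE TGATGNAAT, PU.1 GAGGAAGT with a longer AGAGGAAGT and a shorter GGAAGTG form, E-box CACGTG, C/EBP TTGCNNAA, HNF4 CAAAGTCCA, ARE TGACNNNGC, ETS CCGGAAGT, STAT5 TTCNNNGAA, and by longer patterns HNF1 in 2 lengths, NF-kB, SRE and PPRE. The forms of PU.1 overlap each other and ETS, those of HNF1 overlap each other, and CRE and ARE share their first letters. Figures were drawn with matplotlib 3.10.9.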

Additional observations from a re-analysis of the deposited data

Results flagged for a closer look

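In each group of 4 mice, each of 147 genes named above was checked for 1 mouse far from the other 3, by Dixon's criterion on the log2 scale. Chance gives about 1 such group in 20, and 18 of 441 were found, close to that rate. In the MCD+HF+Met group, mouse 4 was high for Wfdc21, at 1777 against 577 to 671 in the others, and for F9, at 1895 against 1509 to 1560, and low for Cox19, at 542 against 720 to 747. Mouse 3 of that group was low for Serpinf1, at 1599.8 against 1969 to 2047, and for Cyp4a12a, at 125 against 138 to 140. In the MCD+HF group, mouse 2 was high for Bcl7c (177), mouse 1 for Trib3 (118) and mouse 4 for Masp1 (286), whereas mouse 3 was low for Pla2g12b (388) and Npc2 (1417) and mouse 4 for Iars (266). In the NC group, mouse 3 was low for Noct (166), Atf3 (10.1) and Car14 (253), mouse 4 was low for C9 (4265) and Gldc (406), and mouse 2 was high for Tlr13 (55.4) and Cd8a (47.6). Of the calls with metformin on these genes, those of Wfdc21, Cyp4a12a, Cox19, Serpinf1, Bcl7c, Masp1 and Pla2g12b were kept without the mouse that stood apart, and so was that of F9.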

How the results depend on the processing

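With 4 mice per group the number of calls depended on single mice and on the test. Leaving out 1 array at a time gave 86 to 317 probe sets higher and 168 to 528 lower. The higher count was lowest without MCD+HF mouse 2 (86), MCD+HF+Met mouse 2 (96) and MCD+HF mouse 3 (162), and the lower count without MCD+HF mouse 2 (168) and MCD+HF+Met mouse 2 (201). Without the filter on dim probe sets, which tests more probe sets, 166 were higher and 310 lower, and the methods' t-test after adjustment called 3 higher and 5 lower. The other settings left both counts within 1.5 times, at 218 to 406 higher and 387 to 680 lower. The share of higher calls was 35.9% in the values reported. It was 24.3% under an unadjusted t-test with 1.5-fold, which is the methods' rule without its GCOS change call. It was 43.1% after quantile normalization, which moved the median of all genes to 0.04.

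Of 4194 values of 195 genes under the alternatives, 3487 kept their direction and side of the threshold, 660 kept only the direction and no longer passed, 24 passed only there and 23 changed sign, none of which passed. Of these, 5 belonged to called genes and came from other probe sets of Masp1 (-0.110, -0.0838 and -0.0795), Dcn (0.25) and Igfbp7 (0.35). The other 18 belonged to 8 genes that were not called. Other probe sets gave -0.0244 for Hnf4a, 0.537 for Ighm, 0.0372 and 0.392 for Prkaa2 and -0.0651 for Srebf2. With an array left out, Gp1bb ran from -0.0367 to 0.149, Ighm from -0.331 to 0.00130, Krt19 from -0.106 to 0.247, Prkaa2 from -0.131 to 0.196, S100a8 from -0.0578 to 0.424 and Slc29a4 from -0.0990 to 0.123. The cause of these changes was not tested. Quantile normalization took the list medians of lysosomal genes from -0.07 to -0.12, of the urea cycle and amino acid breakdown from 0.13 to 0.07, of conjugating enzymes from -0.13 to -0.07 and of Toll-like receptors from -0.08 to -0.04, and a mean signal of at least 50 took the last to 0.04. The labels do not say whether mice of the same replicate number shared a cage, day or batch. Deviations of same-numbered MCD+HF and MCD+HF+Met mice correlated at -0.00 to 0.25, and 1 of the 4 MCD+HF mice correlated best with its own number. So few correlations cannot exclude a pairing by replicate number. With the number as a block, 261 probe sets were higher and 464 lower. Signals near background limit what can be said of genes below a mean signal of 20, which were not tested.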
